A study of Homo sapiens with 4 samples.

Results

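The gene expression of Ishikawa cells in which Efp was silenced was compared with that of the same cells given a control siRNA. Ishikawa cells were established from an endometrial adenocarcinoma of well-differentiated type and are ERα-positive. Of the 4 arrays of the series, the 2 labelled Ishikawa_siControl and Ishikawa_siEfp were taken for this comparison, and the remaining 2 hold the same pair of treatments in HEC-1A, an ERα-negative endometrial line. The methods give siEfp #A and siControl as the duplexes for the Ishikawa arrays and 48 h as the time between treatment and RNA isolation, whereas for HEC-1A the sources used here give neither. All 4 arrays came from cells kept in medium with 10% serum, and 150 ng of total RNA entered each labelling reaction. No estrogen treatment is named for any of them. Each condition was 1 sample on 1 array, 1 siRNA duplex was used for the Ishikawa cells, and no rescue with an siRNA-resistant Efp is named, so no difference has a replicate check, no p-value is given, and an effect of the duplex on other transcripts cannot be told apart from an effect of losing Efp.

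Efp, the estrogen-responsive finger protein, is the product of TRIM25, a member of the tripartite motif family of RING-type E3 ubiquitin ligases. It is induced by estrogen and by interferon, marks the cell cycle inhibitor 14-3-3σ for degradation, and ubiquitinates the viral RNA sensor RIG-I. The epithelium of the endometrium, the tissue of origin of these cells, grows under estrogen and is held back by progesterone. The lists below were drawn up by processes other than the NF-κB response, although some of their members, such as PLAU, F3, JAG1, CCND1 and BMP2, are also known as NF-κB response genes. The NF-κB subunits, their inhibitors and the response genes that the study itself singled out are not described.

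The values are log2 signals after robust multi-array averaging (RMA), which corrects the background, gives all arrays one distribution and combines the probes of each probe set. A difference of 1 on this scale is 2-fold. Each gene is the mean of its probe sets that carry exactly 1 gene symbol, which gave 18417 genes, and its difference is siEfp minus siControl. The median difference of all genes was 0.01, with an SD of 0.30, and the middle 95% of genes lay between -0.70 and 0.51. For the 769 genes with several probe sets, the differences of the probe sets of a gene spanned a median of 0.12. Signals of different genes depend on their probes and are not compared in size. A gene is only called dim where its signal is below the median of all genes, which is a rough guide.

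The epithelial markers gave clear signals. All 13 measured genes of a 15-gene epithelial list, among them KRT8 (12.44 in siControl and 12.28 in siEfp) and EPCAM (11.24 in both), had at least the gene median signal of 6.34 on both arrays. All 10 endothelial markers were below it on both arrays. Of 15 markers of endometrial stroma and fibroblasts 12 were below it in siControl and 13 in siEfp, and of 14 immune markers 13 and 14. The stromal markers above it in siControl were COL1A1 (7.40), TAGLN (7.20) and VIM (7.04). The progesterone receptor PGR was dim in both (3.22 and 3.23), and ESR1, the gene for ERα, had a signal of 6.91 in siControl and 6.65 in siEfp. In a bulk sample fewer cells of a type and less RNA per cell cannot be told apart, and this holds for every value below.

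TRIM25 itself was at 9.42 in siControl and 7.96 in siEfp, a difference of -1.46 that has the direction of the labels. At 2-fold, 148 genes (0.804% of 18417) were lower with siEfp and 25 (0.136%) were higher. At 1.5-fold the counts were 686 (3.72%) and 274 (1.49%), the shares against which the members of each gene list are read, whereas over differences of any size 47.6% of genes were lower and 52.2% higher. The excess of lower genes thus lay among the large differences. It also lay among genes of medium and high signal. When genes were divided into 5 groups of equal size by their mean signal, from dim to bright, 2, 12, 45, 53 and 36 genes were at least 2-fold lower and 0, 5, 8, 7 and 5 at least 2-fold higher. The SD of all differences in these groups was 0.22, 0.27, 0.33, 0.34 and 0.30. The 9491 genes with at least the median signal on 1 Ishikawa array had a median difference of -0.03. Of the 148 lower genes 145 are annotated as protein-coding, and 109 are in none of the 55 process lists used below.

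**Figure D1:**
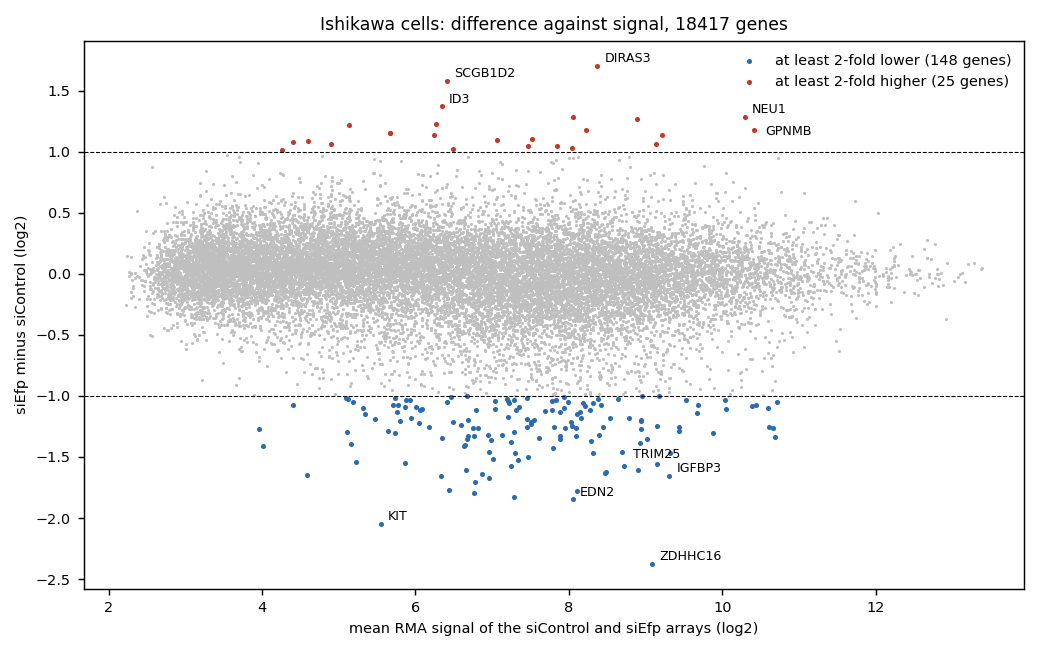
Difference (y axis, siEfp minus siControl, log2) against mean RMA signal (x axis, log2) of 18417 genes in Ishikawa cells, 1 array per treatment. Blue points are the 148 genes at least 2-fold lower and red points the 25 at least 2-fold higher, and dashed lines mark 2-fold. Most blue points lie at medium or high signal, with ZDHHC16 at -2.37 the furthest from 0.

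The genes furthest down came from many processes. The gene furthest down was ZDHHC16, which encodes an endoplasmic reticulum enzyme that attaches palmitate to proteins, at 10.27 in siControl and 7.90 in siEfp (5.18-fold lower). SLAIN1, a protein of growing microtubule ends, was at 8.20 and 6.37, a difference of -1.83. NIPAL1, a magnesium transporter, was at 7.79 and 6.12 (-1.67). Metabolic and mitochondrial genes stood among them as well. MTARC1, a molybdenum enzyme of the mitochondrial outer membrane linked to liver fat, was at 7.46 and 5.85 (-1.61), and DMAC2, an assembly factor of respiratory complex I, was at 9.70 and 8.09 (-1.60). DPY19L1, a C-mannosyltransferase, was at 9.92 and 8.37 (-1.56). P3H2, a prolyl hydroxylase that modifies collagen, was at 8.10 and 6.57 (-1.52). CCDC3, a secreted protein, was at 7.76 and 6.25, with the same difference of -1.52. RNA-binding and signaling genes complete this group. RBMS2 (-1.47) encodes an RNA-binding protein and STRADB (-1.47) a pseudokinase partner of the kinase LKB1. TOR1B, an ATPase of the nuclear envelope and endoplasmic reticulum, was at 8.22 and 6.72 (2.83-fold lower).

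The genes furthest up were fewer and their differences were smaller. DIRAS3, an imprinted gene of a RAS-related GTPase that restrains growth and takes part in autophagy, was at 7.52 in siControl and 9.22 in siEfp, 3.26-fold higher. COBLL1, an actin-binding protein, was at 7.40 and 8.69 (1.29). GPR160, an orphan receptor, was at 5.66 and 6.88 (1.23). Others act in the lysosome, outside the cell or in the nucleus. GPNMB, a glycoprotein of melanosomes and lysosomes, was already bright in siControl (9.83) and reached 11.01 in siEfp (1.18). DNASE1, a secreted endonuclease, was higher by 1.11, NPAS3, a neuronal transcription factor of the bHLH-PAS family, by 1.10, SPA17, a sperm surface protein, by 1.06, and CDK19, a kinase of the Mediator complex, by 1.05.

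**Figure D2:**
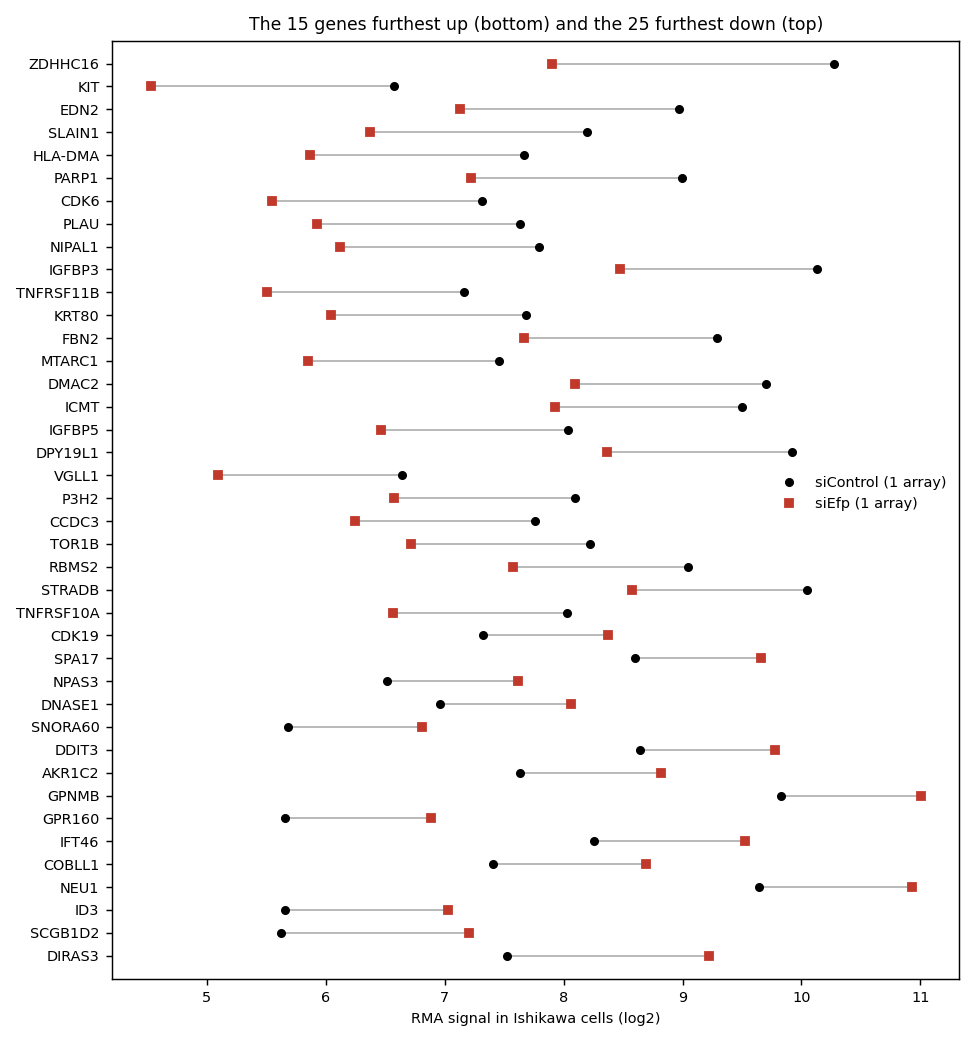
RMA signals (x axis, log2) of the 25 genes furthest down and the 15 furthest up in Ishikawa cells among genes with at least the median signal on 1 array. Black circles are siControl and red squares siEfp, 1 array each, and the line between them is the difference, which runs from -2.37 for ZDHHC16 to 1.70 for DIRAS3.

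Single receptors, ligands and binding proteins of the cell surface had large differences, while most members of the same families were near 0. Of 45 receptor tyrosine kinases, 2 (4.44%) were at least 1.5-fold lower, close to the 3.72% of all genes, and 0 higher, and the median was -0.01. KIT, the receptor for stem cell factor, was at 6.57 in siControl and 4.53 in siEfp (4.13-fold lower), and PTK7, a pseudokinase that takes part in WNT signaling, was at 7.76 and 6.89 (-0.86). The other 43 members lay between ERBB3 at -0.45 and AXL at 0.57. Of 43 growth factors and IGF-binding proteins, 6 were at least 1.5-fold lower and 1 higher, against 3.72% and 1.49% of all genes. EDN2, a vasoconstrictor peptide of the endothelin family, was at 8.97 and 7.13 (-1.85). IGFBP3 and IGFBP5, which bind insulin-like growth factors outside the cell, were at 10.13 and 8.48 (-1.66) and at 8.04 and 6.46 (-1.57). All of these act outside the cell. NRG1, a ligand of the ERBB receptors, stood at -0.66. The median of this list was -0.02 over all measured members and -0.14 over the 20 with at least median signal.

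The list of YAP, TEAD and Hippo pathway genes and their targets had the lowest median of the 55 lists when all measured genes were counted. YAP and its paralog TAZ are coactivators that leave the nucleus when the Hippo kinases are active, and with the DNA-binding TEAD factors they drive genes of growth, matrix and cytoskeleton. Of 36 measured members 30 (83.3%) were lower, against 47.6% of all genes, 10 (27.8%) were at least 1.5-fold lower, against 3.72%, and 1 was at least 1.5-fold higher. The median difference was -0.28. The list holds, in a division made after the values were seen, 13 genes of the factors and the Hippo kinases with their partners, of which 10 were lower, 2 by at least 1.5-fold, at a median of -0.22. Of the remaining 23 members, targets and further regulators, 20 (87.0%) were lower and 8 (34.8%) at least 1.5-fold lower, at a median of -0.36. Among the factors themselves, TEAD1 was at 8.56 in siControl and 7.69 in siEfp (-0.88), and the gene for TAZ, WWTR1, was at 8.41 and 8.06 (-0.35), whereas YAP1 was at 10.13 and 10.28 (0.16). Of the Hippo kinases and their activators, MOB1A was lower (9.86 and 9.08, a difference of -0.79) and the kinase gene LATS2 was higher (7.52 and 8.47, a difference of 0.95). The lower target genes included secreted proteins. CCN1, a matrix-associated signaling protein, was at 9.66 and 9.07 (-0.59), TGFB2 at 8.35 and 7.64 (-0.71), and F3, the tissue factor that starts coagulation, at 6.44 and 5.82 (-0.62). Other targets are cytoskeletal or nuclear. ASAP1, which acts on ARF GTPases, had a difference of -0.64 and ANKRD1, a nuclear ankyrin repeat protein, of -0.61. CCN2, often used as a YAP readout, was at 7.48 and 7.23 (-0.25). The lowest member of the list was IGFBP3, described above (-1.66). Of the remaining 23 members 3 were higher, and the highest was AXL at 0.57. VGLL1 and VGLL3, which are not in the list and were chosen after their values were seen, encode cofactors that bind TEAD in place of YAP. VGLL1 was at 6.64 and 5.09 (-1.55) and VGLL3 at 6.28 and 4.99 (-1.29).

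Promoters of the YAP and TEAD list were read from RefSeq (GRCh38.p14) as the 250 bases before to 50 bases after the gene start, 1 promoter per gene. The TEAD core motif GGAATG, searched on both strands, was in 8 of the 28 promoters found for this list (28.6%), in 11.7% of the 14239 promoters of genes on the arrays and in 14.1% of all 27305 promoters. The 8 members with the motif had a median difference of -0.19 and the 20 without it of -0.23. The motif did not mark the lower members within the list. The windows below, of 30 bases each, show the motif in 4 of its lower members, so that its place in a known TEAD target such as CCN2 can be seen. Capitals mark GGAATG or its reverse complement CATTCC on the strand of the gene. They lie at chr1:218345139-218345168 (plus strand) for TGFB2, chr10:90921290-90921319 (minus strand) for ANKRD1, chr6:131951524-131951553 (minus strand) for CCN2 and chr1:205321925-205321954 (minus strand) for NUAK2, a kinase gene with a difference of -0.21.
TGFB2: tgtcagggcgcaCATTCCacctccttcctc
ANKRD1: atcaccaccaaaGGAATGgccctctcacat
CCN2: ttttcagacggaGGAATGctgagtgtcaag
NUAK2: tcccctagtcccCATTCCtggtgggcgggt
Another motif, the AP-1 core TGANTCA on both strands, was in 8 (7.02%) of the 114 promoters of genes at least 2-fold lower. It was in 5.54% of the promoters of genes on the arrays. For genes at least 1.5-fold lower and higher the shares were 6.27% and 6.31%, and in the YAP and TEAD list 3 of 28 (10.7%). The E-box CACGTG was in 6 of these 28 promoters (21.4%), against 8.84% of those of genes on the arrays. The TEAD core was thus not the only motif more frequent in this list. None of the motifs searched contains another, and a match describes these letters and not a bound site.

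**Figure D3:**
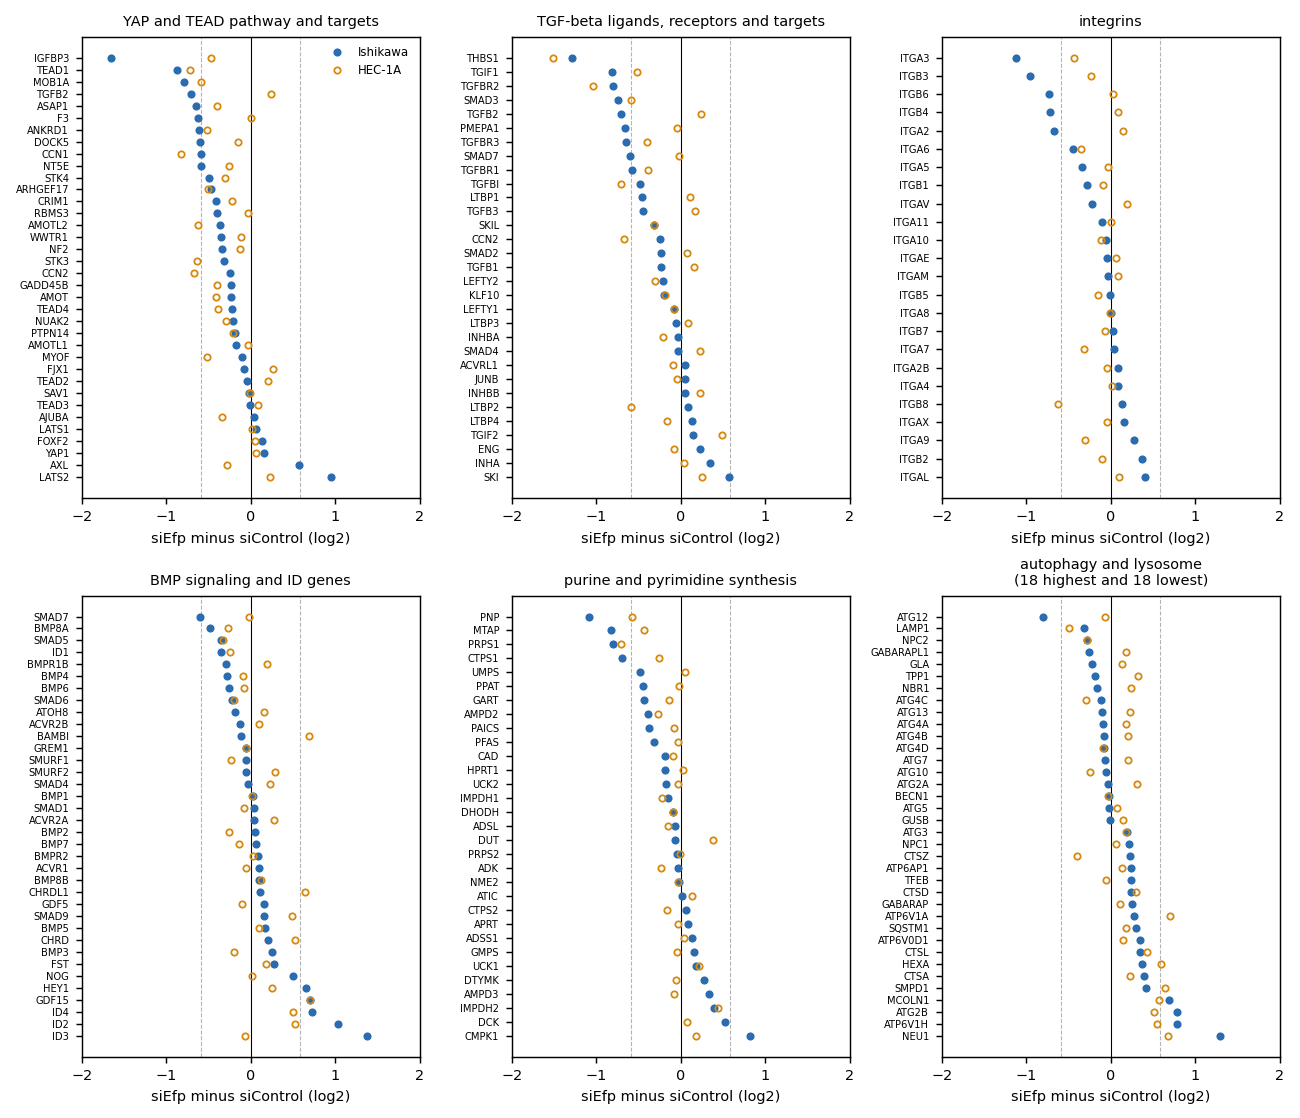
Differences (x axis, siEfp minus siControl, log2) of the members of 6 gene lists in Ishikawa cells (filled blue) and HEC-1A cells (open orange), 1 array per treatment and line. Dashed lines mark 1.5-fold. Of the YAP and TEAD list 30 of 36 members lie below 0 in Ishikawa cells, and NEU1 at 1.29 is the highest member of the autophagy and lysosome list, of which the 18 highest and the 18 lowest members are drawn.

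In the TGF-β list, a ligand, 2 receptor genes, 1 SMAD transducer and 4 target or regulator genes were at least 1.5-fold lower. TGF-β ligands bind a complex of type I and type II receptors that phosphorylates SMAD2 and SMAD3, and these enter the nucleus with SMAD4. Of 31 measured members 22 (71.0%) were lower, against 47.6% of all genes, and the other 9 members were higher. By at least 1.5-fold, 8 (25.8%) were lower, against 3.72% of all genes, and 0 were higher. The median was -0.23. The ligand TGFB2 (-0.71), the type II receptor TGFBR2 (10.64 in siControl and 9.83 in siEfp) and the coreceptor TGFBR3 (-0.65) were all lower. SMAD3 was at 7.52 and 6.78 (-0.74). SMAD2 and SMAD4 were at -0.23 and -0.03, so that of these 3 SMADs only SMAD3 was past 1.5-fold. The products of the target genes include inhibitors of the pathway itself. Among the targets, THBS1, a matrix protein that activates latent TGF-β, was at 10.08 and 8.79 (-1.29), and the inhibitors SMAD7 and PMEPA1 were at -0.60 and -0.66. TGIF1, a corepressor of SMADs, was lower as well (-0.81), and its 5 probe sets ran from -0.93 to -0.51. The highest member was SKI, another SMAD corepressor, at 0.57. The lists share members, so that TGFB2 counts in this list and in that of YAP and TEAD.

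BMP signaling, the sister pathway that works through other SMADs, had a median of 0.05 over 36 members, with 5 members (13.9%) at least 1.5-fold higher, against 1.49% of all genes, and 1 lower. The higher members are transcription inhibitors and a secreted factor. ID3, the highest member, was at 5.66 in siControl and 7.03 in siEfp (1.37). ID2 and ID4, which like ID3 block helix-loop-helix factors, were at 7.52 and 8.55 (1.03) and at 6.94 and 7.67 (0.73). HEY1, a transcriptional repressor, was higher by 0.66 and GDF15, a stress-responsive hormone, by 0.70. GDF15 counts in the list of ATF4 and CHOP stress targets as well. ID1, often used as a BMP readout, was at 11.06 and 10.71, so the 4 ID genes did not have the same direction. The ligands BMP2 and BMP7 and the receptor BMPR2 were at 0.05, 0.06 and 0.09. Over the 17 members with at least median signal the median of the list was -0.03.

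Integrins and other adhesion genes showed differences mostly in their bright members. Of 24 integrin subunits 5 (20.8%) were at least 1.5-fold lower, against 3.72% of all genes, and 0 higher. The median was -0.04 over all 24, but -0.45 over the 11 with at least median signal, of which 90.9% were lower. Most of the 5 lower subunits belong to receptors for laminin, vitronectin and collagen. ITGA3, a laminin receptor subunit, was at 8.25 in siControl and 7.13 in siEfp (-1.13). ITGB3, of the vitronectin receptor, was at 9.57 and 8.61 (-0.96), and ITGB6, which activates latent TGF-β, was at 9.26 and 8.53 (-0.74). ITGB4, the hemidesmosome subunit, and ITGA2, a collagen receptor subunit, were at -0.72 and -0.67. The matrix list was mixed, with 7 of 55 members (12.7%) at least 1.5-fold lower, 0 higher and a median of 0.08. The fibrillins, which form microfibrils, were both lower, with FBN2 at 9.29 and 7.67 (-1.63) and FBN1 at -0.73. The laminin chain genes LAMC1 and LAMB1 stood at -0.74 and -0.59, NID2, which links laminin to collagen, at -0.69, and the collagen gene COL12A1 at -0.76. Enzymes of matrix turnover stood close to all genes, with 1 of 33 at least 1.5-fold lower, 1 higher and a median of -0.08. PLAU, the urokinase activator of plasminogen, was at 7.63 and 5.93, and TIMP2, an inhibitor of metalloproteinases, was at 9.17 and 9.81. Of the stromal markers, TAGLN and ACTA2 were lower (-0.89 and -0.82), while the defining markers DCN and LUM were under 3 on both arrays. The summed signal of all 15 stromal markers was 9.50 in siControl and 9.25 in siEfp on the log2 scale, and the part of such cells in these differences was not tested.

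Among keratins and epithelial junction genes 4 of 51 (7.84%) were at least 1.5-fold lower, against 3.72% of all genes, and 1 higher, with a median of -0.02. KRT80, a keratin of differentiated epithelia, was at 7.68 in siControl and 6.04 in siEfp (-1.64), and KRT7, of simple epithelia, was at 8.12 and 7.35 (-0.77). The tight junction gene CLDN1 was at 10.55 and 9.52 (-1.03), while CLDN3 was at 8.76 and 9.39 (0.63). The claudins thus went in both directions. CDH1, E-cadherin, was at 10.22 and 9.62 (-0.60). Of the 13 epithelial markers 9 were lower, with a median of -0.20, and their summed signal was 14.23 in siControl and 14.10 in siEfp on the log2 scale. The part of the epithelial content in these differences was not tested.

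In the WNT pathway 5 of 51 members (9.80%) were at least 1.5-fold lower and 0 higher, against 3.72% and 1.49% of all genes, at a list median of 0.03. The ligand WNT7A (-0.76), the receptors FZD4 (-0.65) and FZD6 (-0.62), WLS (-0.59), which carries WNT proteins to the cell surface, and the target CD44 (-0.60) made up the 5. In the Notch and Hedgehog list 4 of 36 members (11.1%) were at least 1.5-fold lower and 2 (5.56%) higher, and the median was 0.14, or -0.03 over the 14 with at least median signal. The Notch ligand JAG1 and the target HES1 were lower (-0.61 and -0.60), and so were the Hedgehog receptors BOC (-0.85) and PTCH1 (-0.60). The coactivator MAML3 was higher by 0.60 and the highest member by 0.66, the difference given above for HEY1. The Notch genes thus had no common direction. Of 40 genes of ERK feedback and immediate early response 2 (5%, near the 3.72% of all genes) were at least 1.5-fold lower, ETV4 (-0.82) and SPRY1 (-0.81), which are an ETS factor and a feedback inhibitor downstream of growth factor receptors, and 1 was higher. The median of this list was -0.02, and 0.02 after a second quantile normalization.

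Genes that make ribosomes were lower in small steps and in large number. RNA polymerase I transcribes the precursor of ribosomal RNA in the nucleolus, where helicases, methyltransferases and assembly factors process it. Of 103 measured members of this list 82 (79.6%) were lower, against 47.6% of all genes. Only 3 (2.91%) were at least 1.5-fold lower, which is below the 3.72% of all genes, and 0 were higher by that size. The median was -0.20. The large differences were those of POLR1B, the second subunit of the polymerase, at 8.58 in siControl and 7.32 in siEfp (-1.26), of DDX21, a nucleolar helicase, at 9.38 and 8.20 (-1.18), and of NAT10, an RNA acetyltransferase (-0.69). The highest member was IMP3 at 0.33. Genes for ribosomal proteins and small nucleolar RNAs had medians nearer to 0. Of 63 cytosolic ribosomal protein genes 36 were lower, with a median of -0.02, RPL22 at -0.89 and RPS19 at 0.66, and 192 small nucleolar and Cajal body RNAs had a median of -0.04. SNORA60, a guide RNA for pseudouridylation, was at 5.68 and 6.81 (1.13), or 0.50 when probe sets with several symbols were included. The translation factor list had a median of -0.05 over 46 genes, although EIF4A3, a helicase of the exon junction complex, was at 11.30 and 10.03 (-1.26). The 20 cytosolic tRNA synthetases had a median of 0.02 and 0 members past 1.5-fold.

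The promoters of the ribosome biogenesis genes often held the E-box CACGTG, the motif that MYC and related factors bind. This palindrome, which reads the same on both strands, was in 32 of the 90 promoters found for the list (35.6%), in 8.84% of those of genes on the arrays and in 7.41% of all promoters of the table. Of the 32 members with it 29 were lower, at a median of -0.26, and of the 58 without it 42 were lower, at a median of -0.19. Both groups thus had most members lower. Among the genes at least 2-fold lower, 10.5% of 114 promoters held the E-box. For genes at least 1.5-fold lower and higher the shares were 8.67% and 10.7%. The windows show it upstream of the start in 4 of the lower members, with the E-box in capitals, on the strand of the gene. They lie at chr9:132669988-132670017 (minus strand) for the helicase gene DDX31 (-0.57), chr6:89819932-89819961 (minus strand) for MDN1 (-0.27), an ATPase that remodels pre-ribosomes, chr12:113185522-113185551 (minus strand) for the helicase gene DDX54 (-0.26) and chr17:51260445-51260474 (plus strand) for UTP18 (-0.25), a factor of the small subunit.
DDX31: cctcgcgcgtccCACGTGgggtcccgggcc
MDN1: tttctgtcccacCACGTGctgtgttcgcga
DDX54: ctcagcggaggtCACGTGgtcaccgcacct
UTP18: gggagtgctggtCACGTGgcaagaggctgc
These letters alone do not show that any factor was bound in the cells.

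**Figure D4:**
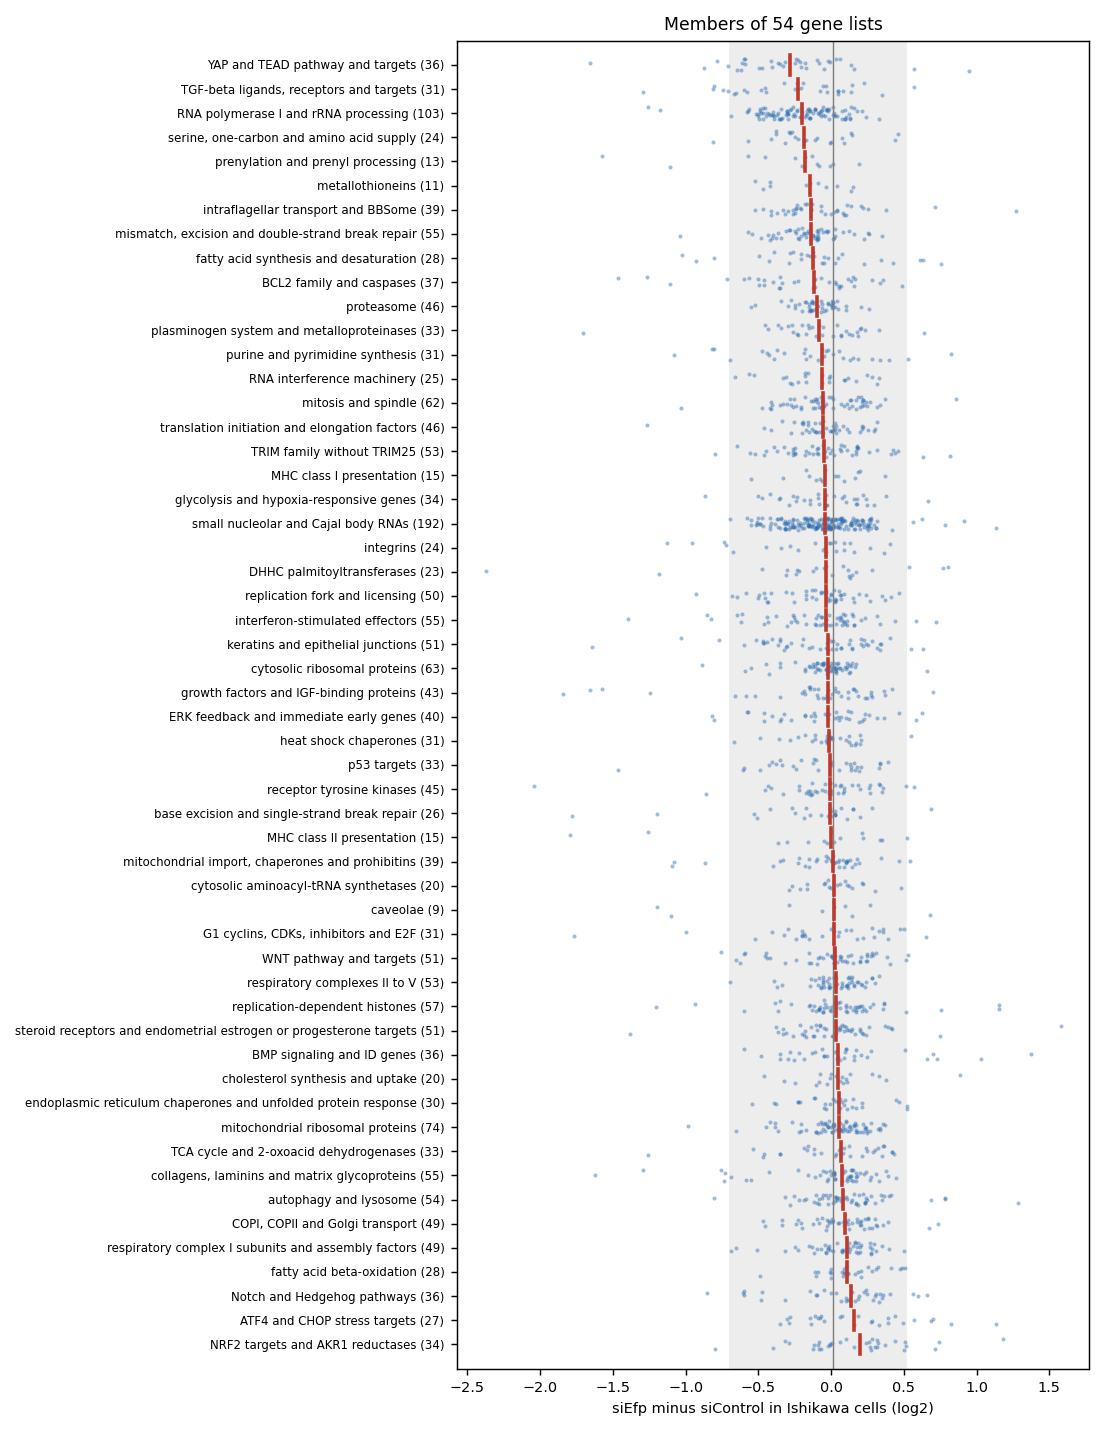
Differences (x axis, siEfp minus siControl in Ishikawa cells, log2) of the members of 54 gene lists, 1 point per gene, with the number of measured members in brackets. Red bars are list medians, the grey line is the median of all genes (0.01) and the shaded band holds the middle 95% of all genes. Medians run from -0.28 for the YAP and TEAD list to 0.20 for NRF2 targets and AKR1 reductases, and single members lie far outside the band in lists whose median is near 0.

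Nucleotide synthesis had a few larger differences and amino acid supply many small ones. Of 31 genes of purine and pyrimidine synthesis 4 (12.9%) were at least 1.5-fold lower, against 3.72% of all genes, and 1 higher, and the median was -0.06. PNP, which splits purine nucleosides, was at 10.92 in siControl and 9.84 in siEfp (-1.08). MTAP, of methionine salvage, PRPS1, which makes the ribose phosphate donor, and CTPS1, which makes CTP, stood at -0.82, -0.80 and -0.69, while the nucleotide kinase gene CMPK1 was higher by 0.82 (8.69 and 9.51). Of 24 genes of serine, one-carbon and amino acid supply 18 (75.0%) were lower, against 47.6% of all genes, with a median of -0.19. The lowest was the leucine transporter gene SLC7A5 (-0.81). ASNS, asparagine synthetase, and GOT1, aspartate aminotransferase, went the other way, at 0.44 and 0.46.

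Cell cycle lists had medians close to that of all genes, with a few large single differences. The median was -0.03 over 50 genes of replication, 0.02 over 31 of the G1 phase and -0.06 over 62 of mitosis, and with the arrays quantile normalized a second time the replication median was 0.00. In G1, CDK6, which phosphorylates RB with D-type cyclins, was at 7.32 in siControl and 5.55 in siEfp, and SKP2, the ubiquitin ligase subunit for p27, was at 11.03 and 10.03 (-0.99). CCND1 was at 11.08 and 10.90. In replication, 4 of 50 members were at least 1.5-fold lower and 0 higher, against 3.72% and 1.49% of all genes. Most of these 4 act at origins, where the ORC proteins load the MCM helicase. They were CLSPN, the claspin adaptor of the checkpoint (-0.93, with probe sets at -1.12 and -0.73), and the origin recognition genes ORC1 (-0.68), ORC6 (-0.64) and ORC3 (-0.59), while the helicase gene MCM2 stood at 0.47. In mitosis, PRC1, which bundles the central spindle, stood at -1.03 and HMMR, a spindle protein, at 0.86. The proliferation marker MKI67 was at 9.55 and 9.76. Among 57 replication-dependent histone genes 3 were at least 1.5-fold lower and 3 higher, at a median of 0.03. H4C14 and H4C15 had identical values (1.15) from near-identical copies and are uncertain.

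DNA repair genes were mostly lower by little. Of 55 genes of mismatch, excision and double-strand break repair 44 (80.0%) were lower, against 47.6% of all genes, at a median of -0.13. BLM, the helicase lost in Bloom syndrome, was the 1 member past 1.5-fold (8.35 in siControl and 7.31 in siEfp). Base excision repair was different in shape. Of its 26 members 15 were lower, with a median of -0.01, but PARP1, which senses strand breaks, was at 7.22 in siEfp and 3.43-fold lower than in siControl, and UNG, which removes uracil from DNA, was at 8.15 and 6.95 (-1.20). NEIL1, another glycosylase, was higher by 0.69.

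Mitochondrial lists had medians from 0.02 to 0.11, where all genes had 0.01 and 52.2% of them were higher. Single members were far lower. Of 49 genes of respiratory complex I 31 (63.3%) were higher and 18 lower, with a median of 0.11. Of 28 genes of fatty acid β-oxidation 22 were higher, with the same median of 0.11, and SLC25A20, the carnitine carrier, at 0.51 was the highest. No gene of this β-oxidation list was past 1.5-fold. Respiratory complexes II to V, the mitochondrial ribosome and the TCA cycle had medians of 0.03, 0.06 and 0.07. Of their members 58.5%, 63.5% and 63.6% were higher. The list of import, chaperones and prohibitins had a median close to that of all genes, 0.02 over 39 genes, with 56.4% higher. In it 3 members (7.69%), PHB2, GRPEL1 and TOMM20, were at least 1.5-fold lower, against 3.72% of all genes, and 0 higher. PHB2, a scaffold of the inner membrane, was at 11.14 in siControl and 10.05 in siEfp (-1.09). GRPEL1, a partner of mitochondrial HSP70, was at 8.96 and 7.88 (-1.08). In the TCA cycle list DLST, of the 2-oxoglutarate dehydrogenase complex, was at 8.72 and 7.47 (-1.26). These proteins act in import, in protein folding and in the TCA cycle. TOMM20, an import receptor of the outer membrane, had a difference of -0.86 and the mitochondrial ribosomal gene MRPS2 of -0.98. In complex I the assembly factor genes TIMMDC1 (-0.69) and NDUFAF7 (-0.65) were the members of the list at least 1.5-fold lower. DMAC2, described above at -1.60, is not in this list and is not counted there.

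Lipid enzymes went in both directions. In the list of fatty acid synthesis 3 of 28 members (10.7%) were at least 1.5-fold lower and 3 (10.7%) higher, with a median of -0.12. Of all 28 members 67.9% were lower. Over the 22 with at least median signal 81.8% were lower, at a median of -0.18. DGAT1, which completes triglyceride synthesis, was at 8.89 in siControl and 7.87 in siEfp (-1.02), ELOVL1, an elongase of very long saturated chains, stood at -0.93, and ACSL1, which activates fatty acids, at -0.80. The 3 members at least 1.5-fold higher were the elongase genes ELOVL7 (9.76 and 10.51), ELOVL4 and ELOVL2, by 0.75, 0.63 and 0.61. In cholesterol synthesis the median was 0.05 over 20 genes, and the SREBP inhibitor gene INSIG1 was at 9.32 and 10.21 (0.89). HK2, hexokinase, was lower (-0.87) in a glycolysis and hypoxia list with a median of -0.04, in which BNIP3, a mitophagy receptor, was higher by 0.67.

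Among stress lists, that of ATF4 and CHOP and that of NRF2 stood at the higher end, whereas the lists of p53, apoptosis, heat shock and metallothionein genes had medians below 0. ATF4 and CHOP are transcription factors of the integrated stress response, and the list holds ATF4 and upstream kinase genes beside their targets. Of its 27 members 4 (14.8%) were at least 1.5-fold higher, against 1.49% of all genes, and 0 lower, with a median of 0.16. Beside DDIT3 and GDF15 these were NUPR1 (6.58 in siControl and 7.40 in siEfp) and CHAC1, a glutathione-degrading enzyme (7.47 and 8.15). ATF4 itself was at 9.23 and 9.30. Endoplasmic reticulum chaperones, with 30 genes, had a median of 0.06 and 0 members past 1.5-fold. NRF2 targets and AKR1 reductases had the highest median of the 55 lists, 0.20 over 34 genes, with 3 (8.82%) at least 1.5-fold higher and 1 lower. AKR1C2 and AKR1C3, which reduce steroids and prostaglandins, were at 7.64 and 8.82 (1.18) and at 7.78 and 8.49 (0.71), AKR1C1 stood at 0.44 and OSGIN1 at 0.75. The AKR1C genes have similar sequences, so their probes may share signal. The export pump gene ABCC2 was lower (-0.80).

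Lysosomal and secretory genes were higher in small steps. In the autophagy and lysosome list 36 of 54 members (66.7%) were higher, against 52.2% of all genes, and 18 lower. Of the 54, 4 (7.41%) were at least 1.5-fold higher and 1 lower, and the median was 0.08. NEU1, lysosomal sialidase, was at 9.64 in siControl and 10.93 in siEfp, and its 3 probe sets ran from 1.20 to 1.33. ATP6V1H, a subunit of the proton pump, MCOLN1, the lysosomal calcium channel, and ATG2B, a lipid transfer protein of autophagosomes, were higher by 0.78, 0.69 and 0.78, and ATG12, a ubiquitin-like protein of the same pathway, was lower (-0.81). Of 49 genes of COPI, COPII and Golgi transport 32 were higher, at a median of 0.10. The proteasome went the other way. Of its 46 genes 33 (71.7%) were lower, against 47.6% of all genes, at a median of -0.10, with 0 members past 1.5-fold. Cilium genes had a like median of -0.14 over 39 members of intraflagellar transport and the BBSome, but IFT46 was at 8.26 and 9.53 (1.27) and DYNC2LI1, of the ciliary dynein motor, was higher by 0.71.

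Enzymes that attach or process lipid anchors and the coat of caveolae held some of the lowest genes. Of 23 DHHC palmitoyltransferases 2 were at least 1.5-fold lower, ZDHHC16 and ZDHHC13 (9.12 in siControl and 7.94 in siEfp), and 2 higher, ZDHHC14 (0.81) and ZDHHC20 (0.77), and the median was -0.04. Prenylated proteins are cut and methylated at their end. Of 13 genes of this route 11 (84.6%) were lower, against 47.6% of all genes, with a median of -0.18. The methyltransferase gene ICMT was at 9.50 and 7.92 (-1.58), the protease gene ZMPSTE24, which matures lamin A, at 10.60 and 9.50 (-1.10), and RCE1, the protease of RAS proteins, stood at -0.57. Of 9 genes of caveolae 2 were at least 1.5-fold lower and 1 higher, at a median of 0.02. CAV1, the main coat protein, was at 9.53 and 8.34 (-1.20) and CAVIN1, which shapes the coat, at 5.86 and 4.76 (-1.10), while PACSIN2 was higher by 0.68.

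Death receptor genes held some of the lower values of the apoptosis list. Of 37 genes of the BCL2 family, death receptors and caspases 5 (13.5%) were at least 1.5-fold lower, against 3.72% of all genes, and 0 higher, where all genes had 1.49%, with a median of -0.12. The death receptor genes TNFRSF10A (8.03 in siControl and 6.56 in siEfp), TNFRSF21 (-1.27) and FAS (-0.60), the BH3-only gene PMAIP1 (-1.11) and the inflammatory caspase gene CASP4 (-0.72) made up the 5. Of 33 p53 targets 3 (9.09%) were at least 1.5-fold lower, TNFRSF10A, FAS and PLK2 (-0.60), and 0 higher, and the median was -0.01, or 0.05 after a second quantile normalization and 0.01 over the 27 with at least median signal. CDKN1A and MDM2, the classical targets, were at 6.46 and 6.56 and at 9.51 and 9.42. Heat shock chaperones (31 genes, median -0.02) and metallothioneins with their regulator MTF1 and the zinc exporter gene SLC30A1 (11 genes, median -0.15) had 1 and 0 members past 1.5-fold, the former being the chaperonin subunit gene CCT5 at -0.67. Over the 7 genes of the metallothionein list with at least median signal the median was -0.42.

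Interferon effectors, which act downstream of the RIG-I route, showed no common direction, and most were dim. Only 13 of the 55 had at least median signal on 1 array and 42 were dim on both. Of 55 members 6 (10.9%) were at least 1.5-fold lower and 2 (3.64%) higher, against 3.72% and 1.49% of all genes, with a median of -0.03. SAMD9, an antiviral protein, was at 5.85 in siControl and 4.46 in siEfp, DTX3L and PARP12 were lower (-0.85 and -0.62), and IFITM1, which blocks virus entry, was at 6.01 and 5.19. HERC5, the ISG15 ligase, and IFIT5 were higher by 0.72 and 0.59. The common interferon readouts IFIT1 (6.58 and 6.70), ISG15 (5.75 and 5.99) and MX1 (4.15 and 4.13) were near equal in the 2 arrays. ISG15 and MX1 were dim, where RMA compresses differences, so their near equality says little. In antigen presentation by class II molecules, HLA-DMA was at 7.67 and 5.87, with 3 probe sets between -1.82 and -1.75, and the class II transcription factor gene RFX5 was at 7.44 and 6.18 (-1.26), whereas HLA-DMB stood at 0.53 and the median of the 15 class II genes was 0.00. The class I list had 0 of 15 members past 1.5-fold and a median of -0.04, with B2M, the shared light chain, at 0.37. Of 53 other TRIM genes 2 were at least 1.5-fold lower, TRIM8 (-0.80) and TRIM21 (-0.65), and 2 higher, TRIM48 (0.82) and TRIM61 (0.64), around a median of -0.05.

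Steroid receptors and endometrial targets of estrogen or progesterone had a median of 0.04 over 51 genes, with 1 (1.96%) at least 1.5-fold lower and 2 (3.92%) higher. Over the 22 with at least median signal the median was -0.10, and 59.1% were lower in place of 43.1%. CA12, a carbonic anhydrase that estrogen induces, was at 9.62 in siControl and 8.23 in siEfp (-1.39). The higher genes were both secretoglobins of glandular epithelium, SCGB1D2 at 5.62 and 7.20 (1.58) and SCGB2A1 at 9.27 and 10.01 (0.75). Secretoglobins are small secreted proteins of glands.

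Among microRNA genes a single one was past 1.5-fold. MIR21, the gene of an abundant microRNA of tumors, was at 6.40 in siControl and 5.36 in siEfp (-1.03), whereas the other 163 of the 164 microRNA genes matched to RefSeq lay between -0.57 and 0.58, with a median of 0.03 over all. The arrays read the precursor or its transcript, and the mature microRNA was not measured. VMP1, chosen after its values were seen, is the gene that MIR21 overlaps, and its signal was 11.59 in siControl and 11.53 in siEfp. The mature strand lies at chr17:59841273-59841294 (plus strand, GRCh38.p14) and is shown from RefSeq because it carries the seed, bases 2 to 8, in capitals.
hsa-miR-21-5p: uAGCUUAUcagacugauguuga
The processing enzyme gene DROSHA stood at -0.66, in an RNA interference list of 25 genes with a median of -0.06, and DICER1 stood at 0.12.

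Of the 109 lower genes that are in no list, some belong to the same family or structure as another, and these were chosen after their values were seen. TCTN2 and TMEM216, both of the transition zone at the base of cilia, were at 8.97 and 7.60 (-1.37) and at 7.35 and 6.02 (-1.33), and CILK1, a kinase of cilia, was lower by a like amount (-1.32). The genes for histone H3.3, H3-3B (11.23 and 10.19) and its relative H3-5 (10.98 and 9.91), had differences of -1.05 and -1.07, and since their sequences are near-identical they are uncertain. RAB3B and RAB3D, GTPases of secretion, stood at -1.30 and -1.03, DPY19L4 at -1.06 beside DPY19L1, and GOLGA7, a partner of palmitoyltransferases, at -1.26. Of all genes at least 2-fold lower or higher, 6 pairs were next to each other among the measured genes in RefSeq order, all lower in both members. These pairs were RAB3B and TXNDC12, P3H2 and CLDN16, CLDN16 and CLDN1, ADGRF1 and TNFRSF21, CDK6 and SAMD9, and the taste receptor genes TAS2R3 and TAS2R4.

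Most of the genes at least 2-fold lower in Ishikawa cells were lower in HEC-1A cells too. Of the 148 genes 127 were lower and 21 higher in HEC-1A cells, and 79 (53.4%) were at least 1.5-fold lower, against 2.04% of all genes in that line. The median difference of the 148 was -1.24 in Ishikawa and -0.63 in HEC-1A cells. Since these genes were chosen for their size in Ishikawa cells, smaller values in the other line follow in part from that choice, and nothing is read from the gap. Of the 25 higher genes 15 were higher in HEC-1A cells, and 6 at least 1.5-fold, against 1.34% of all genes, with medians of 1.14 and 0.17. Some genes were lower in both lines by a similar size, such as ICMT (-1.81 in HEC-1A), TOR1B (-1.58), RBMS2 (-1.28) and KRT80 (-1.30). Others had their large difference in Ishikawa and were near 0 or opposite in HEC-1A cells. SLAIN1 was at -0.07, MTARC1 at 0.21, IGFBP5 at 0.34, VGLL1 at 0.50 and CA12 at 0.12 there, and of the higher genes ID3 was at -0.06, COBLL1 at -0.05 and GPNMB at -0.55, while IFT46 was at 1.14. The HEC-1A control signals of these genes were low for IGFBP5 (4.01), VGLL1 (4.03), MTARC1 (4.54), SLAIN1 (5.07), GPNMB (5.21) and COBLL1 (5.74). They were high for ID3 (9.58) and CA12 (10.00). At the level of lists, the YAP and TEAD list had a median of -0.26 in HEC-1A cells, with 27 of 36 lower, against 47.7% of all genes lower and 52.1% higher in that line, and the TGF-β list of -0.09, with 20 of 31 lower. Ribosome biogenesis had a median of 0.03 there, with 39 of 103 lower, and repair of mismatches, bulky lesions and strand breaks of 0.05, with 22 of 55 lower. With 1 array per condition, whether the lines differ was not tested.

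**Figure D5:**
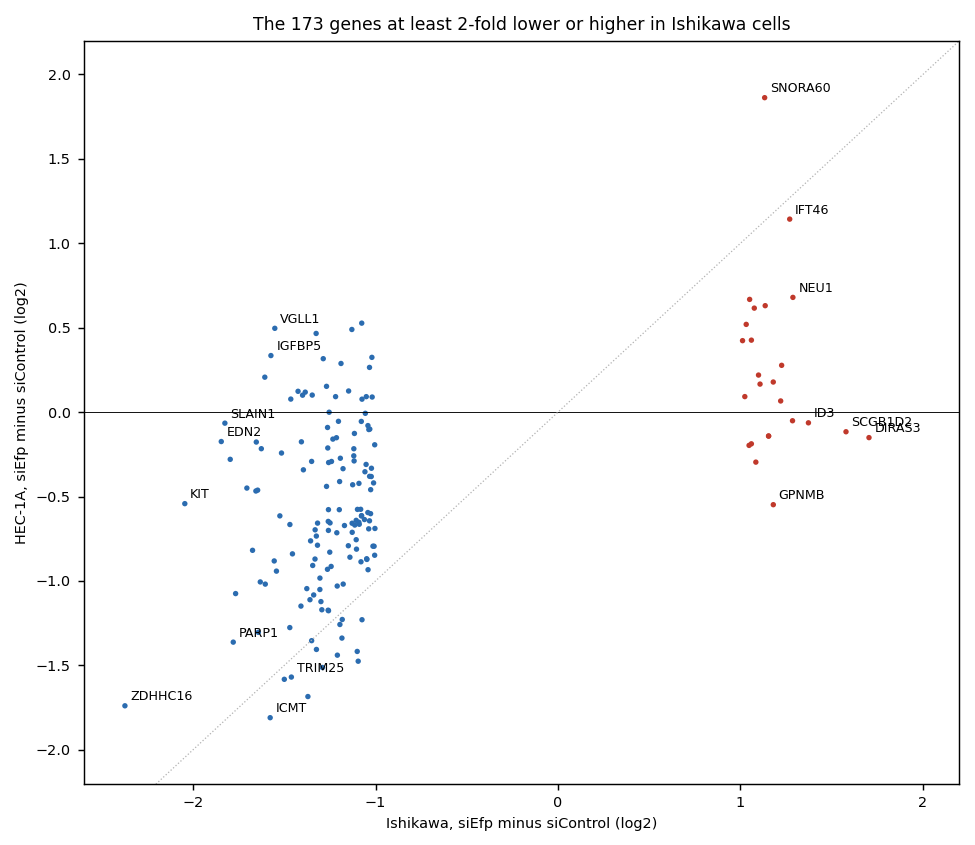
Differences (siEfp minus siControl, log2) in Ishikawa (x axis) and HEC-1A cells (y axis) of the 173 genes at least 2-fold lower (blue) or higher (red) in Ishikawa cells, 1 array per treatment and line. The dotted line marks equal differences. Of the 148 blue points 127 lie below 0 on the y axis, and since the genes were chosen by the x axis their distance from the dotted line is in part fixed by that choice.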

How the data were processed

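RNA of 4 samples (Ishikawa and HEC-1A cells, each with siControl or siEfp) was measured on 1 array each. For each probe set the authors deposited a log2 value, which the submitters' processing notes credit to Affymetrix Expression Console and RMA. The sources used here name neither versions nor a genome build. RMA gives all arrays one distribution, so a shift common to every gene would be lost, and it compresses differences of dim probe sets. A Human Exon 1.0 ST array is named in the paper, but the deposited probe set numbers match the Human Gene 1.0 ST design. Array medians lay between 5.63 and 5.69. With so few arrays the precision is limited.

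Of 33297 probe sets, 19460 had 1 gene symbol, 1754 several and 12083 none in the platform annotation. Those with 1 symbol, of which 19429 matched a RefSeq gene ID, were averaged per gene. Samples were assigned by their titles. Genes were counted at 2-fold and 1.5-fold, and 55 lists from general knowledge were described by counts and medians beside those of all genes. Of these lists, 1 is not reported here. The members, lists and rules were chosen with earlier results of these data known. Named are TRIM25, the 25 genes furthest down and the 15 furthest up among genes with at least the median signal on 1 Ishikawa array, without NF-κB genes and those the study singled out, up to 4 members at each end of a list past 1.5-fold, its lowest and highest members, and marker genes. Further members of a list that are named as its usual readouts, its factors, receptors or ligands were chosen after their values were seen. Alternatives were centring, a second quantile normalization, leaving out dim genes, the brightest probe set of a gene, including probe sets with several symbols, and the lower threshold. Promoter and microRNA sequences are from RefSeq (GRCh38.p14). Scripts ran under Python 3.11.15, with pandas 2.3.3 and numpy 2.4.6 for the values and matplotlib 3.10.9 for the plots, and the counting was tested on simulated data.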

Additional observations from a re-analysis of the deposited data

Results flagged for a closer look

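IFITM1, which blocks the entry of viruses, was at least 1.5-fold lower with siEfp in Ishikawa cells (-0.82) and at least 1.5-fold higher in HEC-1A cells (0.59). With 1 array per condition this difference between the lines was not tested.

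Probe sets outside the gene table also had large differences. Of 12083 probe sets with no gene symbol 112 were at least 2-fold higher and 148 at least 2-fold lower in siEfp-treated Ishikawa cells. Of 1754 probe sets with several symbols 4 were at least 2-fold higher and 3 lower. They cannot be assigned to 1 gene here.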

How the results depend on the processing

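Each comparison rests on 1 array per condition, so no difference between treatments can be set against a spread between replicates. No paired analysis was possible because each group has 1 array and no test was run. With the 1.5-fold threshold 686 genes were lower and 274 higher. With the 2-fold threshold the count of lower genes, 148 as reported, ran from 130 without dim genes to 152 after centring on the median, and that of higher genes, 25 as reported, from 18 without dim genes to 28 after a second quantile normalization. Centring moved all genes by 0.01. The share of lower members of a list was called unchanged within the exact binomial 95% interval of its reported share. This rule counts members as if independent, which they are not, and the interval is wide for short lists. A shift from 67.9% to 81.8% in fatty acid synthesis thus still counted as unchanged. By this rule the share was unchanged in 268 of 275 combinations of list and setting, which says little for short lists. The remaining 7 all left out genes below the median signal, which leaves fewer members. The share lower was then 50.6% for small nucleolar RNAs, 80% for growth factors and IGF-binding proteins, 90.9% for integrins, 80% for MHC class I presentation, 59.1% for steroid receptors and endometrial targets and 78.3% for the TRIM family. The Notch and Hedgehog list turned direction, from a median of 0.14 to -0.03, with 50% lower. A list median had another sign in 14 of the 275 combinations, 5 of them without dim genes (p53 targets 0.01, BMP signaling -0.03, Notch and Hedgehog -0.03, MHC class II -0.63 over 4 genes, and steroid receptors and endometrial targets -0.10). The other combinations all started from a median between -0.03 and 0.02, for instance base excision repair, at 0.02 after a second quantile normalization, and caveolae, at -0.02 with probe sets of several symbols. Of 1229 combinations of named gene and setting 5 moved, all with probe sets of several symbols included, namely H2BC21 (-0.32), SNORD115-25 (0.07), SNORA60 (0.50), H4C14 (0.30) and H4C15 (0.30). Signals below the median of 6.34 limit what can be seen, since RMA compresses differences there.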
